A study of Mus musculus with 6 samples.

Results

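miR-143 and miR-145a are made from hairpins that lie next to each other and are transcribed as one precursor RNA. They were measured here as all mouse entries of the deposited count table named miR-143, miR-145a or miR-145b, both arms included. These were 5 distinct sequences (mmu-miR-143-3p, mmu-miR-143-5p, mmu-miR-145a-5p, mmu-miR-145a-3p and mmu-miR-145b, written below without the species prefix mmu) of 1963 distinct mouse sequences, and 3 of the 5 had reads. The names were fixed by family and not by a cut on a measured value, though earlier results of these data were known.

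The series comprised 6 small RNA libraries of mouse liver, 3 in each of 2 groups. One group was given an adeno-associated virus of serotype 9 (AAV9) carrying Cre recombinase behind the promoter of Tnnt2, the cardiac troponin T gene, which is used to limit expression to heart muscle cells. The other group, Cre-miR122, was given the same vector with an added element named after miR-122, and the labels do not say whether that element encodes the miRNA or binds it. No source used here gives age, sex, strain, dose or time after injection. The values come from replicate 2 of the Cre-miR122 group, and the remaining 5 libraries are not analysed here. There was thus no replicate and no control, the values describe this library only, and intervals in parentheses are exact 95% intervals that cover the counting error of reads and nothing else.

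In mammals the miR-143/miR-145 precursor is known as a product of smooth muscle cells, pericytes, fibroblasts and, in liver, stellate cells, and it is scarce in most epithelial cells. Its transcription in smooth muscle depends on serum response factor and its partner myocardin, and both miRNAs are known to help hold smooth muscle cells in the contractile state. Each hairpin is cut into a duplex of a 5p and a 3p strand, one of which is usually kept in an Argonaute protein and the other discarded. The seed, bases 2 to 8 counted from the 5′ end, sets most of the target choice, so a different 5′ start gives a different seed, while a different 3′ end does not.

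On the mm10 (GRCm38) build Mir143 (ENSMUSG00000065445.3) is on chromosome 18, minus strand, 61649196 to 61649258. Mir145a (ENSMUSG00000065592.2) follows downstream on the same strand from 61647825 to 61647894, with 1301 bases between the hairpins. Neither hairpin lies inside another gene of GENCODE release M21, which annotates no precursor spanning both. The long noncoding RNA gene Carmn, regarded as the host gene of the pair, ends 366 bases upstream of Mir143 in that annotation. miR-143-5p spans 61649233 to 61649253 and miR-143-3p 61649199 to 61649219, each 21 nt long. The 23-nt miR-145a-5p spans 61647866 to 61647888 and the 22-nt miR-145a-3p 61647827 to 61647848. Mir145b (ENSMUSG00000098366.1), a separate gene on the same chromosome and strand, lies at 69022199 to 69022273, also outside other genes.

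The library held 6661069 reads over distinct mouse sequences and 8163802 over all distinct sequences of the table. Reads on the 4 arms came mainly from one of them. Mouse entries of the family held 137794 reads, 2.07% of mouse reads, and 165725 when the end forms described below were added. miR-143-3p made up 98.3% of that larger sum. The library is of whole liver, so the cells that carried these reads were not identified, and in bulk RNA fewer cells of a type and less RNA per cell cannot be told apart.

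mmu-miR-143-3p, the strand of miR-143 that is usually kept, had 135826 reads by its mouse entry, 2.04% of mouse reads (2.03 to 2.05). It ranked 6th among mouse sequences. The next above were let-7f-5p with 231073 reads and miR-381-3p with 192422, and the next below were let-7i-5p with 111173 and let-7g-5p with 91306. All 4 differed from miR-143-3p beyond counting error, the closest in ratio being let-7i-5p at 0.818 reads per read of miR-143-3p (0.812 to 0.825).

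mmu-miR-145a-5p, the usual strand of miR-145a, had 1902 reads by its mouse entry, 0.0286% of mouse reads (0.0273 to 0.0299), and ranked 55th. miR-199a-3p, which shares its sequence with miR-199b-3p and is known from stellate cells and fibroblasts, came next with 1794 reads and did not differ from it beyond counting error, at a ratio of 0.943 (0.884 to 1.01). The entries above it, miR-1839-5p with 2159 reads and miR-148a-5p with 2123, were both higher beyond counting error. miR-30e-3p, below miR-199a-3p with 1732 reads, was lower beyond it. One of these, miR-148a-5p, is the discarded strand of miR-148a-3p, the most abundant sequence of the library at 3856275 reads. These comparisons are by mouse entries, and the order changed with the end forms described below. Counted so, miR-145a-5p had 2368 reads, miR-199a-3p 9500 and miR-1839-5p 3900. miR-30e-3p then had 2322 and miR-148a-5p 2138.

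The discarded strands were rare. mmu-miR-143-5p had 66 reads by its mouse entry, 0.000991% of mouse reads (0.000766 to 0.00126), and ranked 187th. Its neighbours miR-539-5p and miR-676-3p with 67 reads each, miR-342-3p with 63 and miR-214-3p with 62 were all within counting error of it. The entry of mmu-miR-145a-3p had 0 reads, which allows a share of up to 4.5e-05% of mouse reads, taking 3 reads as the floor. miR-145b also had 0 reads. It shares its first 17 bases, and so its seed, with miR-145a-5p, and 0 reads were counted for any entry found in the Mir145b hairpin and not in that of Mir145a. Beside miR-145b, the only other mouse sequence with the seed of a family member was miR-1930-3p, which shares that of miR-143-5p and had 0 reads.

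**Figure D1:**
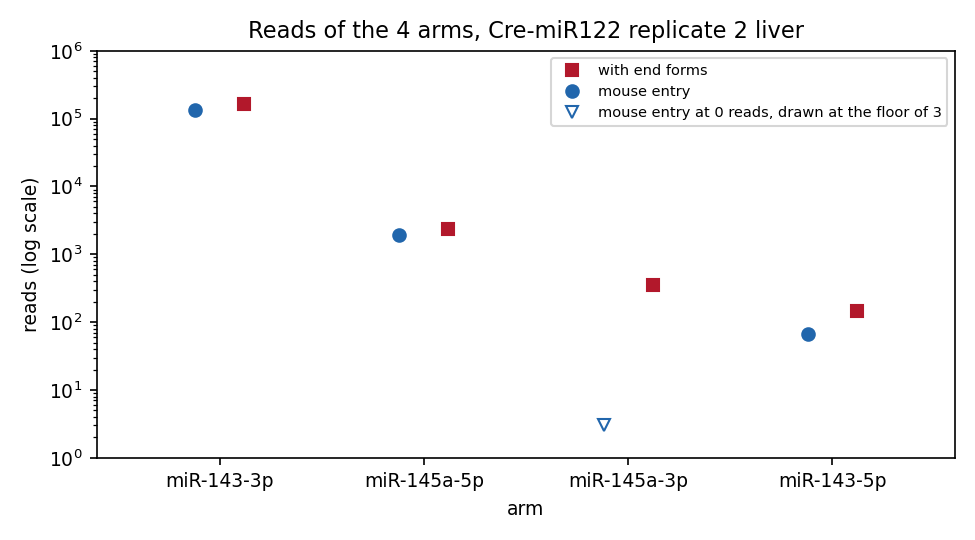
Reads of the 4 arms in Cre-miR122 replicate 2, on a log scale, by mouse entry (circles) and with end forms (squares). The arms run from 162854 to 147 reads with end forms, and the mouse entry of miR-145a-3p, at 0 reads, is drawn as an open triangle at the floor of 3.

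Entries of other species with the same names record the same arms with other ends. In all, 139 same-named entries of 51 species codes held 28 distinct sequences, counting miR-145 of other species as miR-145a. Of these, 23 matched a mouse hairpin exactly and are the mouse entries or their end forms, 2 differed from the hairpin only at the last bases, and 3, all of the lamprey, matched neither hairpin and had 0 reads. No entry of another name added a read to any of the 4 arms. Only end forms that some species' entry records can be seen.

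By arm, end forms raised miR-143-3p from 135826 to 162854 reads, 1.2-fold, and miR-145a-5p from 1902 to 2368, 1.25-fold. miR-143-5p rose 2.23-fold, from 66 to 147. miR-145a-3p went from 0 to 356 reads, so that the arm missing by its mouse entry stood above miR-143-5p once end forms were counted. With end forms miR-143-3p held 2.03% of the reads and ranked 6th, and miR-145a-5p held 0.0295% and ranked 71st. miR-145a-3p held 0.00443% and ranked 140th, ahead of miR-143-5p with 0.00183% and rank 190.

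All counted reads of miR-143-3p had the mouse 5′ start, and they varied at the 3′ end. The mouse form, 21 nt long, held 83.4% of the arm (83.2 to 83.6). The form 1 nt shorter had 21396 reads or 13.1% (13 to 13.3), and the form 1 nt longer had 5632 or 3.46% (3.37 to 3.55). A form starting 3 nt earlier, recorded for a bat, had 0 reads. It is the only recorded form of this arm with another start, so smaller shifts could not be seen. A form with another base in place of the hairpin's at the added 22nd position had 62 reads and is not counted in the arm.

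All counted reads of miR-145a-5p also had the mouse 5′ start. Forms 2 and 4 nt shorter are recorded for this arm and not for miR-143-3p. The spread of lengths of the 2 arms therefore cannot be compared. The 23-nt mouse form held 80.3% (78.7 to 81.9). The form 1 nt shorter had 233 reads or 9.84% (8.67 to 11.1), the form 1 nt longer 187 or 7.9% (6.84 to 9.06), the form 2 nt shorter 42 or 1.77%, and the form 4 nt shorter 4 reads. Forms starting 1 nt and 3 nt later, each 18 nt long, had 0 reads, and a 25-nt form with another last base had 5. No recorded form has another start and a length near 23 nt, so such shifts could not be seen. The shorter form outnumbered the longer by 1.25 to 1 (1.02 to 1.52) in miR-145a-5p and by 3.8 to 1 (3.69 to 3.91) in miR-143-3p. These intervals do not overlap, so the balance of these 2 forms differed between the arms beyond counting error. The difference lay mainly in the longer form, 3.46% of miR-143-3p and 7.9% of miR-145a-5p. All shorter forms together held 13.1% and 11.8%.

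The discarded strands had a smaller share of reads on the mouse entry than the usual strands, though the recorded forms differ between arms. For miR-143-5p the mouse form held 44.9% (36.7 to 53.3) of 147 reads, the form 1 nt longer had 40 reads or 27.2% (20.2 to 35.2), and the form 2 nt longer had 41 or 27.9% (20.8 to 35.9). All its reads had the 5′ start of the mouse entry, and the 2 recorded forms with another start had 0 reads, which with 147 reads allows up to 2.04% each.

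miR-145a-3p was the only one of the 4 arms with reads at another 5′ start. Its mouse entry ends 1 to 3 nt beyond the entries of other species that lie in the hairpin. That mouse entry had 0 of 356 reads, which allows up to 0.843% of the arm at the floor of 3 reads. The largest form, with the mouse 5′ start and a 3′ end 1 nt earlier, had 142 reads or 39.9% (34.8 to 45.2). A form starting 2 nt earlier and ending 2 nt earlier, which is the human miR-145-3p, had 94 or 26.4% (21.9 to 31.3). A form with the mouse start that ended 2 nt earlier, recorded for the opossum, had 69 or 19.4% (15.4 to 23.9). The remaining 3 forms, with 28, 15 and 8 reads, all started before the mouse entry.

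Over these forms, 211 reads or 59.3% (54 to 64.4) of miR-145a-3p started where the mouse entry does, 117 or 32.9% (28 to 38) started 2 nt earlier and 28 or 7.87% (5.29 to 11.2) started 1 nt earlier. The 3 starts give 3 seeds, and 0 other mouse sequences share any of them. Thus 40.7% (35.6 to 46) of the reads of this arm had a seed other than that of the mouse entry. In miR-143-3p, miR-143-5p and miR-145a-5p, 0 reads had another start, over 1, 2 and 2 recorded forms with one. For miR-145a-3p 4 such forms are recorded, so the 4 arms were not compared on equal terms.

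**Figure D2:**
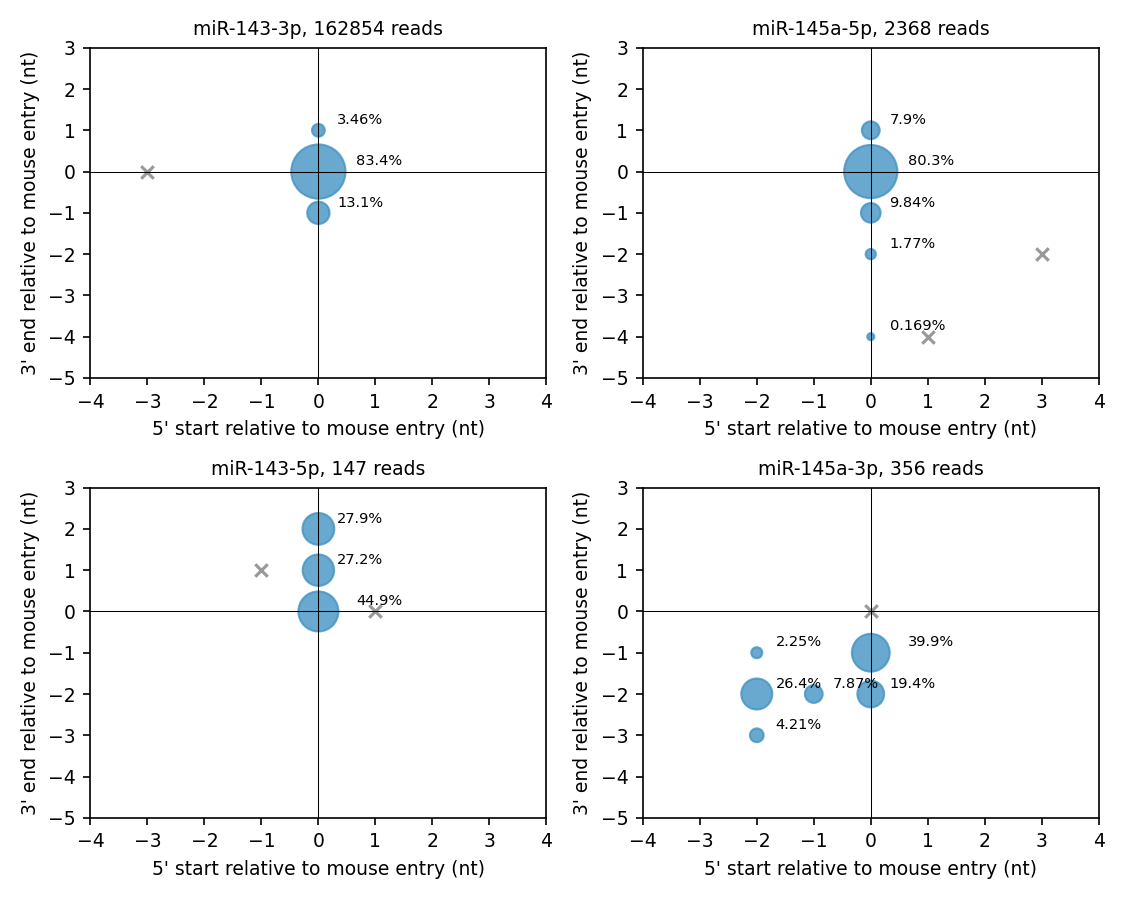
End forms of the 4 arms, with the 5′ start and the 3′ end in nt relative to the mouse entry. The area of a circle follows its share of the arm's reads, printed beside it, and crosses are recorded forms with 0 reads. Circles lie on one vertical line in miR-143-3p, miR-145a-5p and miR-143-5p and at 3 starts in miR-145a-3p, where the mouse entry itself is a cross.

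Set against the rest of the library, the capture by the mouse entry was above the median for the usual strands and at the bottom for miR-145a-3p. Among 206 mouse arms with at least 100 reads including end forms, the mouse entry held a median of 70.1%, and it held under 50% in 82. miR-143-3p stood above 131 and miR-145a-5p above 122 of these arms. miR-145a-3p and miR-382-3p were the 2 arms whose mouse entry had 0 reads. In 156 of the 206 arms no counted read had another 5′ start, and miR-145a-3p was one of 14 arms in which over 40% had. Arms differ in the forms recorded for them. An arm with no recorded form at another start can show none, and one with no end form has all its reads on the mouse entry. Such arms were not set apart.

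The gap between miR-143 and miR-145a was first taken between the usual strands. By mouse entries there were 71.4 reads of miR-143-3p per read of miR-145a-5p (68.3 to 74.8), and with end forms 68.8 (66 to 71.6). It depended on the 3′ end compared. Between forms 1 nt shorter than the mouse entry the ratio was 91.8 (80.7 to 105), between mouse forms it was 71.4, and between forms 1 nt longer it was 30.1 (26 to 35). The intervals of the 3 ratios do not overlap. At each of the 3 ends miR-143-3p was the higher. Forms 2 and 4 nt shorter are recorded for miR-145a-5p and not for miR-143-3p. The form of miR-143-3p that is 1 nt shorter may thus include shorter reads, which was not tested. Ligation favours some ends and sequences, which was not measured here, so these are ratios of reads and not of molecules.

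**Figure D3:**
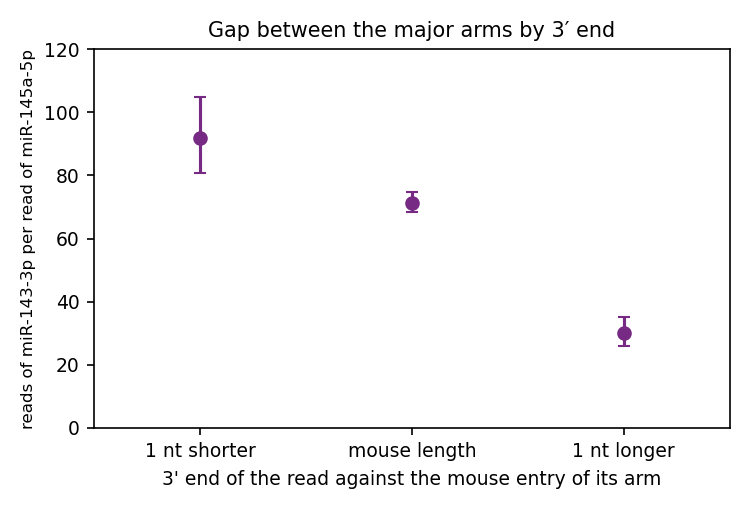
Reads of miR-143-3p per read of miR-145a-5p for forms 1 nt shorter than, equal to and 1 nt longer than the mouse entry of each arm, with exact 95% intervals of counting error. The ratio is 91.8, 71.4 and 30.1 from left to right.

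The gap did not extend to the discarded strands. With end forms, miR-145a-3p had 356 reads and miR-143-5p had 147, so the miR-145a strand was the higher, by 2.42 to 1 (1.99 to 2.96). It was also the higher when only forms with the mouse 5′ start were counted, 211 reads against 147 or 1.44 to 1 (1.16 to 1.78), and when only the largest form of each arm was, 142 against 66 or 2.15 to 1 (1.6 to 2.93). By mouse entries alone the order was the opposite, with 66 reads of miR-143-5p and 0 of miR-145a-3p, at least 22-fold higher against the floor of 3 reads. Over both arms, end forms included, 163001 reads came from the Mir143 hairpin and 2724 from that of Mir145a, a ratio of 59.8 (57.6 to 62.2).

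The 2 hairpins accordingly differed in how their reads were divided between arms. With end forms miR-143-3p had 1108 reads per read of miR-143-5p (942 to 1311), and miR-145a-5p had 6.65 per read of miR-145a-3p (5.95 to 7.46). The dominant strand was the 3p in Mir143 and the 5p in Mir145a, as it was in 27 and 41 of 68 hairpins described next. The lesser strand made up 0.0902% (0.0762 to 0.106) of the reads of Mir143 and 13.1% (11.8 to 14.4) of those of Mir145a. These intervals do not overlap.

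Among 68 mouse hairpins with at least 1000 reads, with both arms annotated and each arm found in that hairpin only, the lesser strand held a median of 1.05%. Of the other 67 hairpins, 20 had a smaller share than Mir143, 7 of them with 0 reads on the lesser strand. For Mir145a, 56 had a smaller share and 11 a larger one. By counted reads the neighbours thus stood on opposite sides of the median. Mir143 was among hairpins with nearly all reads on 1 strand and Mir145a among the more even ones. Arms differ in the forms recorded for them, which enters these shares. All 356 reads of miR-145a-3p lie on end forms, and its mouse entry had 0.

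**Figure D4:**
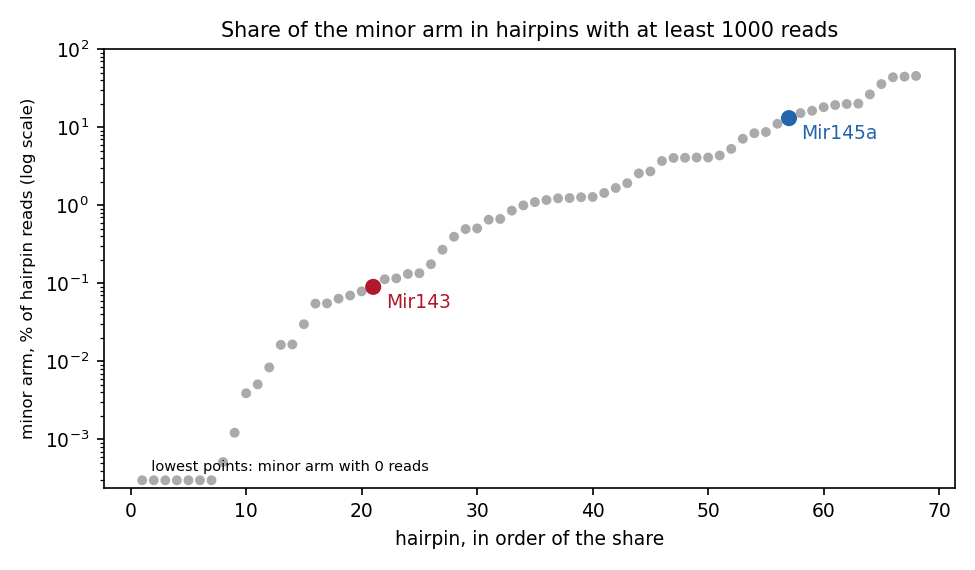
Share of the lesser strand, in % of the reads of both arms with end forms on a log scale, in 68 hairpins with at least 1000 reads. Mir143 stands at 0.0902% and Mir145a at 13.1%, and the 7 hairpins with 0 reads on the lesser strand are drawn at the foot of the axis.

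The gap was then set beside those of other neighbouring miRNAs that share a transcript. Of 55 listed pairs of miRNA genes that lie together, 1 had a name not in the table, and 43 had at least 10 reads by mouse entry for the higher arm of both miRNAs. The other 42 had a median ratio of higher to lower miRNA of 11.3, from 1.06 to 3443. miR-143 and miR-145a ranked 8th at 71.4, with a larger gap in 7 of the other pairs. Pairs that share a member, or a sequence with several gene copies, are not independent, and the pairs are set side by side as a description.

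The 3 widest gaps were of miR-206 and miR-133b (68854 against 20 reads), miR-381 and miR-487b (192422 against 152) and miR-1a and miR-133a (980271 against 915). The pairs with miR-133a and miR-133b are of striated muscle, and miR-381 and miR-487b belong to the imprinted miRNA cluster of chromosome 12. The 3 narrowest were of miR-193b and miR-365 (34 against 36), miR-30a and miR-30c (31156 against 22920) and miR-19b and miR-92a (50 against 77). With end forms the gap of miR-1a and miR-133a fell from 1071 to 91.8, and that of miR-19b and miR-92a rose from 1.54 to 48.3. The gap of miR-143 and miR-145a, at 71.4 and 68.8, moved little in comparison. Some pairs had both miRNAs on the list of stellate cell, fibroblast and smooth muscle miRNAs below. Among them, the gap of miR-199a and miR-214 was 14.5 by mouse entries, from miR-199a-5p with 3574 reads and miR-214-5p with 247. With end forms it was 34.8, from miR-199a-3p with 9500 reads and miR-214-5p with 273. The higher arm of miR-199a thus changed, and the reads of miR-199a-3p are shared with miR-199b-3p. With end forms miR-199a-5p had 4285 reads. The gap of miR-221 and miR-222 was 13.6 by mouse entries and 1.69 with end forms. The gap of miR-29a and miR-29b was wider than that of miR-143 and miR-145a, at 79 and 113, but rests on 2 reads of miR-29b-3p by its mouse entry and 8 with end forms, under the minimum of 10. That of miR-29b and miR-29c, also under this minimum, was 2.5 by mouse entries, against miR-29c-3p, and 6.25 with end forms, against miR-29c-5p.

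**Figure D5:**
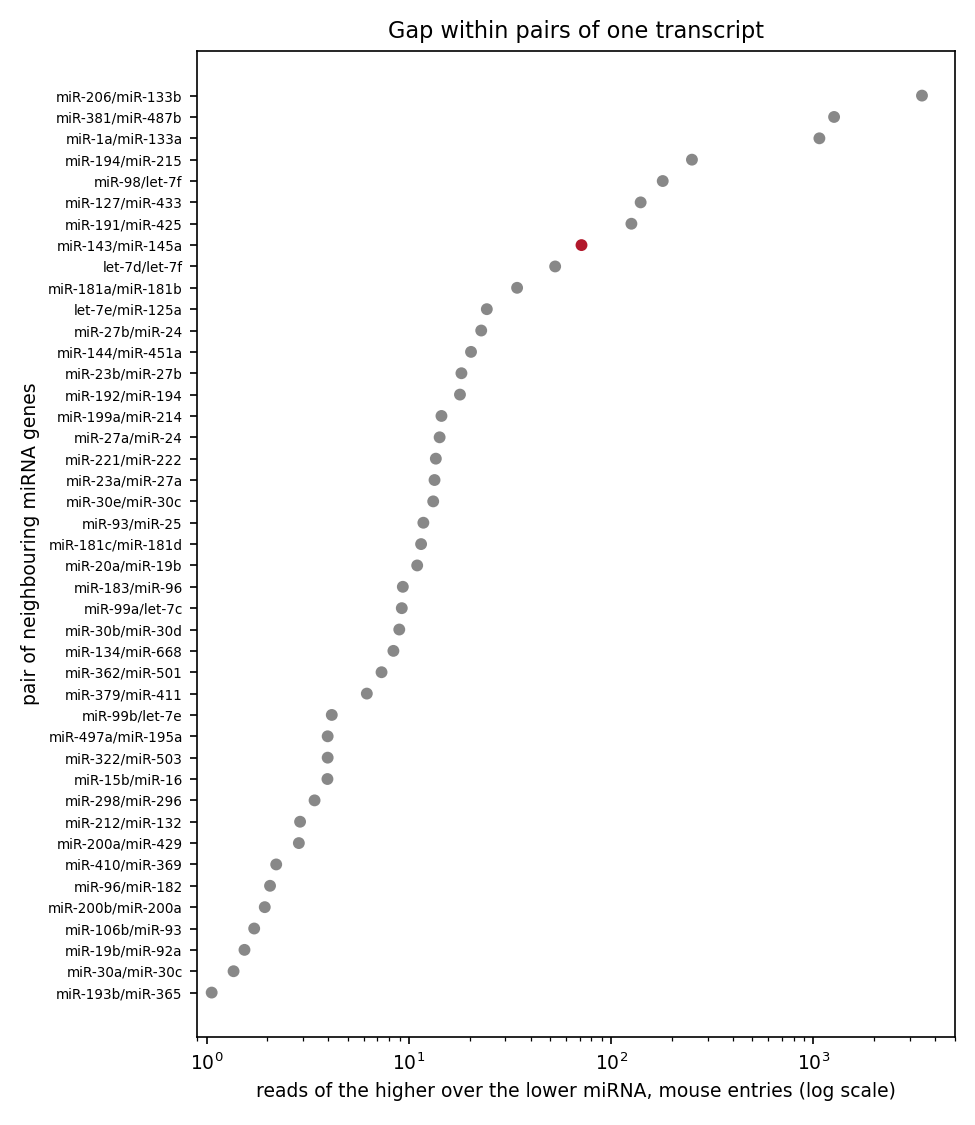
Reads of the higher over the lower miRNA, by mouse entries of the higher arm of each and on a log scale, in 43 pairs of neighbouring miRNA genes with at least 10 reads each. The pair miR-143/miR-145a, in red, ranks 8th at 71.4.

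Other miRNAs known from stellate cells, fibroblasts and smooth muscle were compared with the pair, using end forms. All 22 listed had reads, 11 of them at least 1000, and together they held 250648 reads. miR-143-3p, at 162854, was above each of the 22. The nearest were miR-26a-5p, which is widely expressed, with 94134 and miR-21a-5p, which rises in fibrosis and injury, with 78762. miR-145a-5p was below 9 of the 22 and level with 2. There were 1.01 of its reads (0.958 to 1.07) per read of miR-125b-5p and 1.03 (0.971 to 1.09) per read of miR-335-3p, both within counting error of 1. It exceeded miR-199b-5p with 560 reads, miR-221-3p with 420 and miR-214-5p with 273.

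The rest of the list lay on both sides of miR-145a-5p. miR-199a-3p with 9500 reads and miR-199a-5p with 4285 lay above it, as did miR-100-5p with 24537, miR-152-3p with 9400, miR-10b-5p with 9021, miR-24-3p with 6873 and miR-23b-3p with 6322. miR-29b-3p with 8 reads, miR-29c-3p with 10 and miR-490-3p, a smooth muscle miRNA, with 3 were at the low end. Levels of different miRNAs are in reads, so ligation bias enters each of these orders, and the list was chosen with earlier results of these data known.

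Markers of other cells were present beside the pair. Hepatocyte miR-122-5p, miR-192-5p and miR-194-5p all had reads, 9.79% of the library with end forms. Striated muscle markers had reads for 5 of 6, with miR-208a-3p at 0, and held 14.5%, with miR-1a-3p giving 1065891 of their 1165843 reads. Endothelial miR-126a-3p and miR-126a-5p held 1.7%, and miR-143-3p had 1.21 reads per read of miR-126a-3p. Epithelial markers had reads for 5 of 5 and held 0.116%, red cell markers for 3 of 3 and held 0.0711%, and leukocyte markers for 5 of 5 and held 0.00998%. The part of muscle, vessel or other cells in the levels of miR-143 and miR-145a was not tested, and a difference from mice given Cre alone was not tested either.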

How the data were processed

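Small RNA of mouse liver was ligated to adapters at both ends, amplified, size-selected and sequenced as single reads, per the labels' protocols. The deposited table gives raw counts of reads of 1 cleaned library per mature miRNA entry of all species, per the file headers. Its one library column carries the title of replicate 2 of Cre-miR122, and the number of columns without a sample was 0. Neither the counting program and its settings nor the total reads before matching could be read from the sources used here. mm10 is named by the submitters' processing notes.

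The 48885 entries hold 30721 distinct sequences. Identical sequences had equal counts (0 exceptions), and each was counted once. Among 22 nested pairs of forms of the 4 arms, the longer form had more reads in 12, so a read was not counted for every entry it contains. Other rules that give each read to 1 entry cannot be told apart, so a form may include reads whose own ends are in no entry.

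Entries were placed by exact match in 2202 GENCODE M21 (GRCm38) hairpins, with an overlap of at least 15 nt. End forms of the 4 arms are same-named entries, and for other miRNAs entries of any name. Shares of mouse reads use 6661069 reads, and shares with end forms 8032208. Clopper-Pearson 95% intervals were used for shares, and for ratios exact binomial intervals given the sum of both counts. PCR copies count as separate reads, so the intervals and the floor of 3 reads cover counting error only. Intervals were tried on counts simulated under the counting model that they assume, which says nothing of PCR copies. Placement was tried on simulated forms with smaller 5′ shifts than the largest counted in miR-145a-3p.

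No test between groups was possible with 1 library. Members, pairs and marker lists were chosen with earlier results of these data known. miRNAs named are the members, the 2 next above and below each, the 3 widest and 3 narrowest pairs, listed markers and miR-148a-3p. miR-382-3p, miR-1930-3p, 4 further pairs and markers with under 1000 reads were named after their values were seen. The mature sequences are not printed here. Alternatives were other denominators, other ways of counting end forms and other sets of pairs. Calculations used SciPy 1.17.1, NumPy 2.4.6 and pandas 2.3.3 under Python 3.11.15, with figures from matplotlib 3.10.9.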

Additional observations from a re-analysis of the deposited data

Results flagged for a closer look

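Reads on entries of other species lie outside the mouse entries, and for all 4 arms they exceeded the floor of 3 reads. There were 27028 such reads for miR-143-3p, 466 for miR-145a-5p, 356 for miR-145a-3p and 81 for miR-143-5p. The 356 are all the reads of miR-145a-3p. Forms with other last bases than the hairpin had 67 reads, 62 of miR-143-3p and 5 of miR-145a-5p.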

How the results depend on the processing

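The order of the discarded strands reversed with the counting: the ratio of miR-143-5p to miR-145a-3p was at least 22 by mouse entries and 0.413 with end forms, because all reads of miR-145a-3p lie on end forms. For the same reason the ratio of miR-145a-5p to miR-145a-3p went from at least 634 to 6.65. End forms also took the ratio of miR-143-3p to miR-143-5p from 2058 to 1108 and that of both arms summed from 71.4 to 59.8. The ratio of miR-143-3p to miR-145a-5p stayed within its interval under all 4 other ways of counting, from 68.7 to 73.6, and was above 1 in each. Of these ways, end forms of any name held the same reads as same-named end forms. The share of miR-143-3p was 1.66% of all reads in the table, 2.03% with end forms and 4.84% without miR-148a-3p in the total. That of miR-145a-5p was 0.0233% of all reads and 0.0678% without miR-148a-3p. miR-143-5p held 0.00183% with end forms and 0.00235% without miR-148a-3p, and miR-145a-3p 0.00443% with end forms. The pair ranked 5th of 25 with at least 100 reads each, 5th of 27 without sequences of several gene copies and 8th of 45 with end forms. The share of each arm on its mouse entry stayed within its interval under both other definitions of end forms. Entries of any name added no read to these arms, and forms with other last bases added 67. Neither definition could therefore move the shares much. Comparisons that need several libraries, with their other tools, filters and left-out replicates, were not run. No paired analysis was possible because the table has a single library. Depth limits the discarded strands most, with 147 and 356 reads.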
